A study of Mus musculus with 24 samples.

Results

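A set of 40 genes of DNA replication and cell division was followed through fragments of mouse ileum kept in culture with bile acids or bile acid extracts. The set is 40 of the 57126 genes of the counts table, found by matching Ensembl identifiers to a list of symbols, and all 40 were tested, among 13125 genes tested in all. Among them, 10 form a class of origin licensing and firing (Cdc6, Cdt1, Mcm2 to Mcm7 and Gins2, with the sliding clamp Pcna grouped with them). Another 4 supply nucleotides (Rrm1, Rrm2, Tyms, Tk1). These 14 are described as replication genes. Another 5 encode G1 and S phase cyclins (Ccnd1, Ccnd2, Ccne1, Ccne2, Ccna2), 17 act in mitosis, and 4 are chromatin or proliferation markers (Mki67, Top2a, Hmgb2, Stmn1).

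A cell that divides first licenses its replication origins by loading the MCM helicase, with Cdc6 and Cdt1 as loaders, then copies its DNA with Pcna as the sliding clamp, and finally separates the copies under cyclin B and Cdk1, until Cdc20 and the anaphase-promoting complex end mitosis. Transcription of the early genes depends largely on E2F factors, and that of many mitotic genes on the DREAM and B-Myb complexes. In the ileum, cells divide in the crypts, while the enterocytes of the villi have left the cycle.

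Ileum was taken from male wild-type mice of strain C57BL/6J after 4 h without food, so all libraries are wild-type tissue, cultured for 8 h. The 6 groups are 0.6% DMSO (the solvent), tCDCA (taurine-conjugated chenodeoxycholic acid, 200 µM in replicates 2 to 4), and extracts of wild-type (WT) or Asbt-/- donors in the forms CME(-) (200 µM in replicates 2 to 4) and CME(+), for which no concentration is given. No concentration is given for replicate 1 of tCDCA and of the extracts. Asbt carries bile acids into ileal enterocytes, and its genotype here describes the donor of the extract and never the cultured tissue. The abbreviation CME is not spelled out, and the labels do not say which form was depleted of bile acids. The labels do not tie replicates to different mice, and the spread that the p-values rest on may therefore be technical.

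Of 24 libraries of 3' mRNA tags, 21 were used, 3 or 4 a group, with 2755149 to 5602265 counts each, of which the 40 genes held 2804 to 9158. Replicate 1 of each group carries another column prefix than replicates 2 to 4, taken here as a first and a second sequencing run. The submitters removed DMSO replicate 1 (0.5% DMSO) and, for poor mapping, WT CME(+) replicate 2 and Asbt-/- CME(-) replicate 3. All used DMSO libraries are therefore from the second run. Levels are given as CPM, counts scaled to library size with TMM factors, and reads of a 3' tag method are not compared between genes. Fewer dividing cells and less RNA per dividing cell cannot be told apart in such bulk samples. DMSO replicate 3 was the control lowest in the 40 genes. Their mean log2(CPM + 0.5) difference from the DMSO mean was -0.23 there, 0.21 in replicate 2 and 0.02 in replicate 4. Replicate 3 had the lowest level of all second-run libraries used for 11 of the 40 genes, and 2804 of its counts fell in them. Mitochondrial rRNA took 34.6% of its reads, the largest share of the 24 libraries, against 29.17% in replicate 2 and 19.46% in replicate 4. By a chi-square on the raw counts of the genes tested, replicate 4 was the control least like the others. That measure includes the mitochondrial rRNA and weighs genes of many counts most. How far the rRNA share sets this order was not tested. The chi-square per degree of freedom of replicate 4 was 25.8 against replicate 2 and 28.2 against replicate 3, and that between replicates 2 and 3 was 17.2. Calls and class medians are given with and without DMSO replicate 3. Enterocyte markers were present, the brush border gene Vil1 with 30806 counts over the used libraries.

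With the extract of Asbt-/- donors in the CME(+) form, 3 of the 40 genes rose against DMSO: Cdc20, Mcm2 and Ccnd1. Cdc20 rose also with tCDCA and with WT CME(+). No member rose or fell in the other 2 comparisons with DMSO, in the 6 comparisons among the treatments, or in the interaction of extract form and donor. A gene is said to rise or fall where the edgeR quasi-likelihood test gave a Benjamini-Hochberg adjusted p under 0.05 over the 13125 genes. The comparisons with DMSO share its 3 libraries, so their values are not independent of each other.

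**Figure D1:**
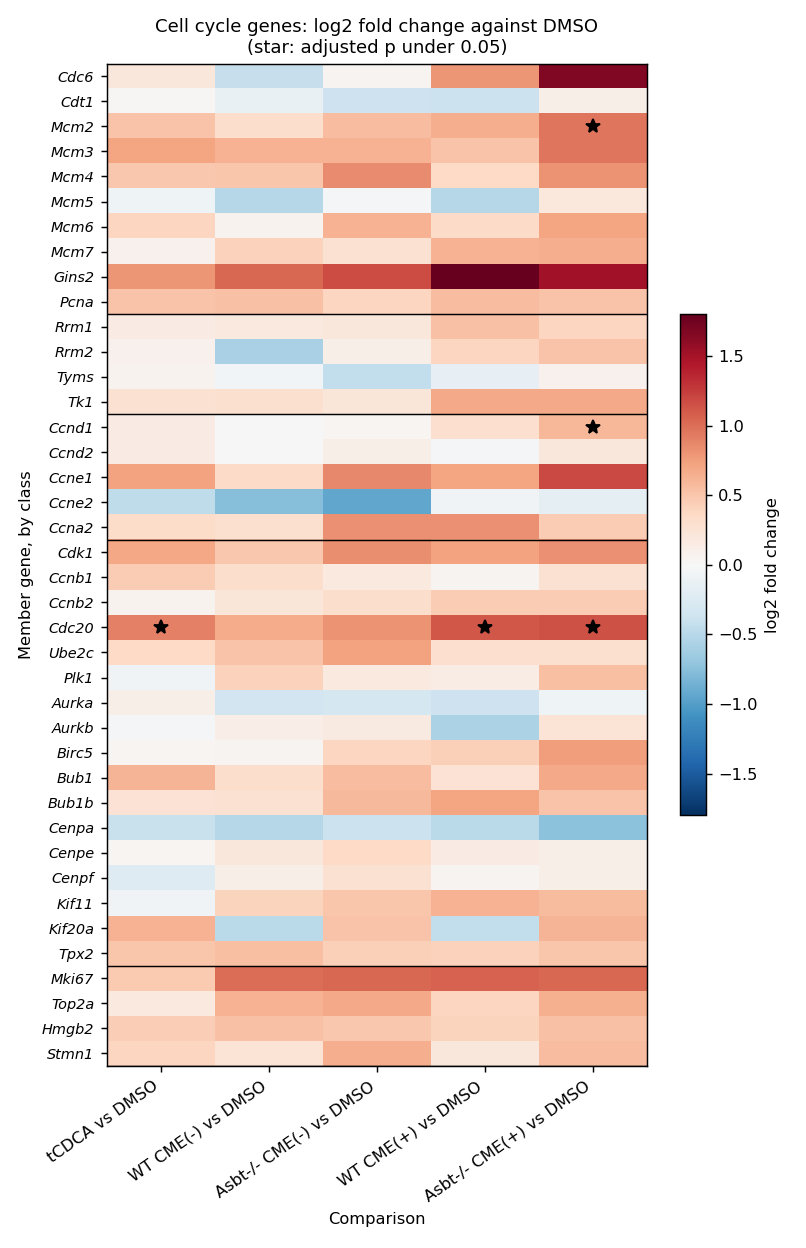
Fold change of each of the 40 genes (rows, grouped by class) in the 5 comparisons with DMSO (columns), on a log2 scale from blue (lower) to red (higher), with stars at an edgeR adjusted p under 0.05. Stars mark 5 cells, 3 of them in the Cdc20 row and 3 in the Asbt-/- CME(+) column.

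In tCDCA, 1 of 40 members rose and none fell, where 2.52% of all genes tested rose and 3.16% fell. At an unadjusted p under 0.05 in edgeR, 5 members were higher and 0 lower, against 8.86% and 8.83% of all genes. The median log2 fold change of the members was 0.23 (33 above 0) and that of all genes 0. The 5 of 40 members are a share near that of all genes.

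In WT CME(-) no member rose or fell, where 0.107% of all genes rose and 0.19% fell, and DESeq2 called 0 as well. At an unadjusted p under 0.05, 6 members were higher and 2 lower, against 4.45% and 4.93% of all genes, and the members' median was 0.28 (29 above 0) beside -0.01 for all genes. For Asbt-/- CME(-) 0 members rose in edgeR and 1, Cdc20, in DESeq2, where 0.381% of all genes rose and 0.571% fell in edgeR. There, 8 members were higher and 1 lower at an unadjusted p under 0.05, against 5.87% and 6.51% of all genes, with a median of 0.39 (34 above 0) beside -0.01.

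In WT CME(+) 1 member rose and none fell, where 0.145% of all genes rose and 0.0305% fell. In all, 10 members were higher and 0 lower at an unadjusted p under 0.05, against 5.33% and 4.71% of all genes, and the median was 0.38 (31 above 0) beside -0.02. In Asbt-/- CME(+) 3 members rose, where 1.39% of all genes rose and 0.922% fell. In all, 17 members were higher and 1 lower at an unadjusted p under 0.05, against 7.76% and 7.46% of all genes, and the median was 0.53 (37 above 0) beside -0.01. Without DMSO replicate 3 the members' medians were 0.09, 0.13, 0.30, 0.23 and 0.45 in tCDCA, WT CME(-), Asbt-/- CME(-), WT CME(+) and Asbt-/- CME(+), and 3, 2, 5, 7 and 12 members were higher at an unadjusted p under 0.05. The shares of all genes in the fit without that library are not reported here. Those above are of the main fit and are no background for these counts.

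In Asbt-/- CME(+) 1 of 14 replication genes, Mcm2, rose. All 14 had log2 fold changes above 0 there, with a median of 0.67, where 48.8% of all genes tested were above 0, and without DMSO replicate 3 the median was 0.46, with 11 of 14 above the median of all genes. Mcm2 (ENSMUSG00000002870) encodes a subunit of the MCM helicase. Mcm2 was at 13.4, 12.2 and 10.5 CPM in DMSO replicates 2, 3 and 4. It was at 18.5, 26.3, 19 and 22 CPM in Asbt-/- CME(+) replicates 1 to 4, so all 4 libraries lay above the highest DMSO library. The change was 0.96 ± 0.26 (log2 ± SE, n = 4 against 3, 1.95-fold, edgeR adjusted p = 0.0374). Over 17 alternative settings the edgeR or DESeq2 adjusted p ran from 0.00738 to 0.343, and 5 of them kept the call, while without DMSO replicate 3 the change was 0.97 (adjusted p = 0.16).

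The Mcm2 levels of the other groups overlapped those of DMSO. tCDCA replicates 1 to 4 held 11.3, 13.6, 15.9 and 23.2 CPM, WT CME(-) 10.5, 13.6, 16.2 and 15.4 CPM. Asbt-/- CME(-) replicates 1, 2 and 4 held 12.1, 18.1 and 17.6 CPM, and WT CME(+) replicates 1, 3 and 4 held 11.9, 20.7 and 18.9 CPM. In every treated group replicate 1, from the first run, had the lowest Mcm2 level. Their log2 fold changes were 0.52, 0.32, 0.56 and 0.65, none past the edgeR threshold. The removed DMSO replicate 1 stood at 13.9 CPM for Mcm2, above the first-run libraries of tCDCA, WT CME(-), Asbt-/- CME(-) and WT CME(+). Its promoter is printed because Mcm2 is the replication gene that rose. Build GRCm38.p6, chr6:88898731-88899030, minus strand, 250 bases before to 50 after the start site (RefSeq), with a cell cycle homology region (CHR) match and a CCAAT box in capitals:
Mcm2: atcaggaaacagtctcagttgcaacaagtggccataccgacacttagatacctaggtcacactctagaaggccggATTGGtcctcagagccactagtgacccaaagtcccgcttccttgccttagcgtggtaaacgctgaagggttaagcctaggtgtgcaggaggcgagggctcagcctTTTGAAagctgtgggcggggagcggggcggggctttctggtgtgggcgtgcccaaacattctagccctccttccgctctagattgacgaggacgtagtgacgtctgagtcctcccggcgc

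Pcna, the sliding clamp of the polymerases, was at 27.5, 12.6 and 19.7 CPM in DMSO replicates 2, 3 and 4. Pcna stood at 30.2, 20, 36 and 28 CPM in tCDCA, 30.7, 34.8, 28.1 and 21.9 CPM in WT CME(-), and 27.3, 31.1, 30.2 and 25.7 CPM in Asbt-/- CME(+), each in replicates 1 to 4. It stood at 25.6, 22.7 and 31 CPM in Asbt-/- CME(-) and 30.3, 29.1 and 29.3 CPM in WT CME(+). DMSO replicate 3 was the lowest library of all for Pcna, while the removed DMSO replicate 1, at 31.5 CPM, lay above the 5 treated libraries of the first run. Log2 fold changes lay between 0.39 and 0.55 in the 5 comparisons, and the smallest unadjusted p was 0.0382, which did not pass the edgeR adjustment. Pcna lay between 0.15 and 0.32 on that scale without DMSO replicate 3.

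Other licensing genes in Asbt-/- CME(+) were Mcm3 at 0.97 ± 0.31 (log2 ± SE, edgeR adjusted p = 0.0941), Mcm7 at 0.66 ± 0.20 (adjusted p = 0.0695) and Cdc6 at 1.67 ± 0.53 (adjusted p = 0.0899), none past the threshold. Cdc6, the loader of the helicase, measured 10.8 ± 3.73 CPM (SD, n = 3, second run) in Asbt-/- CME(+) and 3.86 ± 1.87 CPM (n = 3) in DMSO. Gins2, a subunit of the GINS complex that activates the helicase, lay above every used DMSO library in every used treated library, with log2 fold changes from 0.80 to 1.79, but at 1.11 to 1.75 CPM in DMSO these rest on few counts and none passed. The removed DMSO replicate 1 held 1.82 CPM of Gins2. First-run tCDCA and WT CME(-) held 1.93 CPM each, Asbt-/- CME(-) 1.76, WT CME(+) 3.18 and Asbt-/- CME(+) 1.87. Mcm5 and Cdt1 lay near or below DMSO outside Asbt-/- CME(+): Mcm5 at -0.52 in WT CME(-) and -0.51 in WT CME(+), Cdt1 at -0.37 in Asbt-/- CME(-) and -0.38 in WT CME(+).

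Of the nucleotide supply genes none rose or fell. Tk1, thymidine kinase, had log2 fold changes of 0.68 in both CME(+) groups, and Tyms, thymidylate synthase, of -0.45 in Asbt-/- CME(-). Outside Asbt-/- CME(+) the 14 replication genes had medians of 0.24 (13 above 0) in tCDCA, 0.23 (9) in WT CME(-), 0.25 (11) in Asbt-/- CME(-) and 0.53 (11) in WT CME(+). Leaving out DMSO replicate 3, these medians were 0.07, 0.01, 0.10 and 0.32.

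Among the G1 and S phase cyclins 1 rose, Ccnd1 in Asbt-/- CME(+). Ccnd1 (ENSMUSG00000070348) encodes cyclin D1, the partner of Cdk4 and Cdk6 that carries mitogen signals into the cycle. It was at 82.5, 73.1 and 101 CPM in DMSO replicates 2, 3 and 4, and at 85.2, 113, 145 and 145 CPM in Asbt-/- CME(+) replicates 1 to 4. The 3 second-run libraries of Asbt-/- CME(+) lay above the DMSO libraries, and the first-run library lay among them. The removed DMSO replicate 1 held 84.3 CPM of Ccnd1, beside the 85.2 CPM of first-run Asbt-/- CME(+). The change was 0.60 ± 0.17 (log2 ± SE, n = 4 against 3, 1.52-fold, edgeR adjusted p = 0.0419). The call was kept in 7 of 17 alternative settings, with edgeR or DESeq2 adjusted p from 0.00981 to 0.5, and without DMSO replicate 3 the change was 0.50 (edgeR adjusted p = 0.309).

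Ccnd1 levels in the other groups overlapped those of DMSO. tCDCA replicates 1 to 4 held 72.2, 83.1, 97.1 and 102 CPM, and WT CME(-) 64.9, 92.9, 94.2 and 66.5 CPM. Asbt-/- CME(-) replicates 1, 2 and 4 held 68.2, 76.9 and 92.5 CPM, and WT CME(+) replicates 1, 3 and 4 held 78, 104 and 106 CPM. The log2 fold changes were 0.15, 0.00, 0.03 and 0.30, near 0 in both CME(-) groups, with an edgeR adjusted p of 0.607 or more. Ccne1 and Ccne2, the cyclins E that bring Cdk2 into S phase, went apart. Ccne1 had log2 fold changes of 0.73, 0.35, 0.86, 0.71 and 1.19 in tCDCA, WT CME(-), Asbt-/- CME(-), WT CME(+) and Asbt-/- CME(+), and Ccne2 of -0.46, -0.77, -0.93, -0.07 and -0.18, none past the threshold. Ccne2 was at 13.6 ± 3.37 CPM (SD, n = 3) in DMSO, 7.6 ± 1.69 (n = 3) in WT CME(-) and 6.62 ± 2.84 (n = 2) in Asbt-/- CME(-).

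**Figure D2:**
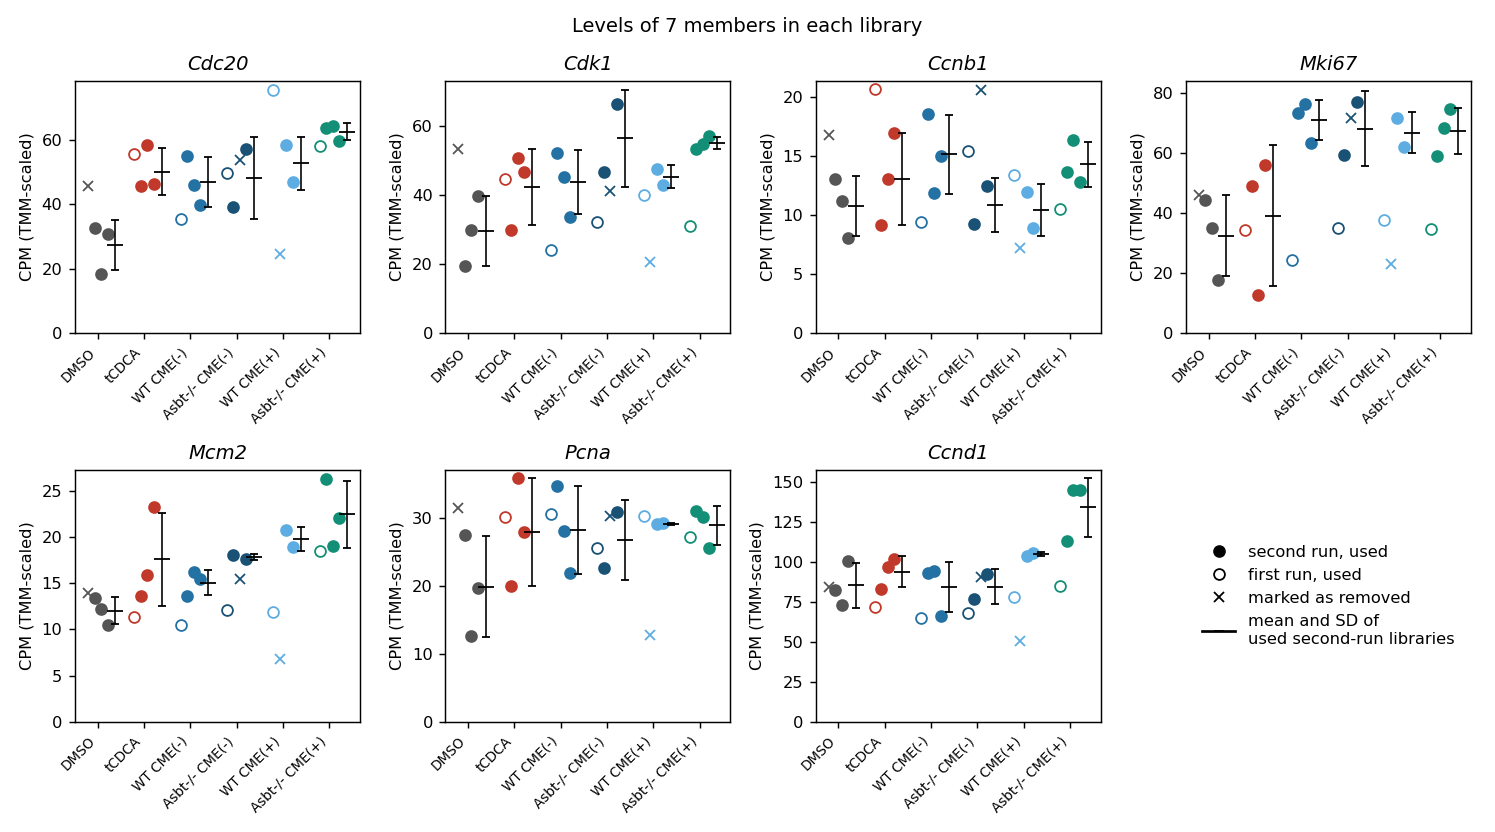
CPM of 7 members in each library (vertical axis from 0) by group, with filled circles for second-run, open circles for first-run and crosses for removed libraries, and bars for the mean ± SD of the used second-run libraries. All used treated libraries lie above the used DMSO libraries for Cdc20, while the removed DMSO library lies at 45.6 CPM.

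Cdc20 (ENSMUSG00000006398), which activates the anaphase-promoting complex, was the member that rose most often. It was at 32.7, 18.5 and 30.7 CPM in DMSO replicates 2, 3 and 4, a mean of 27.3 ± 7.68 (SD, n = 3). tCDCA replicates 1 to 4 held 55.6, 45.8, 58.5 and 46.2 CPM, WT CME(+) replicates 1, 3 and 4 held 75.5, 58.5 and 47 CPM, and Asbt-/- CME(+) replicates 1 to 4 held 58.2, 63.8, 64.5 and 59.6 CPM. All libraries of these groups lay above the highest DMSO library used. The log2 fold changes ± SE were 0.90 ± 0.21 in tCDCA (n = 4 against 3, 1.87-fold, edgeR adjusted p = 0.00663), 1.12 ± 0.23 in WT CME(+) (n = 3 against 3, 2.18-fold, adjusted p = 0.0206) and 1.15 ± 0.21 in Asbt-/- CME(+) (n = 4 against 3, 2.22-fold, adjusted p = 0.0015).

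Cdc20 was higher also with the CME(-) extracts, though not past the threshold. WT CME(-) replicates 1 to 4 held 35.4, 55.1, 46 and 39.7 CPM, and Asbt-/- CME(-) replicates 1, 2 and 4 held 49.8, 39.2 and 57.2 CPM, each again above the used DMSO libraries. The log2 fold changes were 0.67 ± 0.21 and 0.81 ± 0.23 (edgeR adjusted p = 0.207 and 0.0748). The removed DMSO replicate 1, at 45.6 CPM, lies within the treated range, and leaving out DMSO replicate 3 gives 0.69 in tCDCA (edgeR adjusted p = 0.11), 0.91 in WT CME(+) (0.266) and 0.95 in Asbt-/- CME(+) (0.0478). Over all alternatives the edgeR or DESeq2 adjusted p ran from 0.00173 to 0.117, from 0.00114 to 0.622 and from 2.55e-05 to 0.0704 in these 3 groups.

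The promoter of Cdc20 is printed as that of the mitotic gene that rose, with that of Cdk1 for comparison. Both are from RefSeq on GRCm38.p6, minus strand, at chr4:118437294-118437593 for Cdc20 and chr10:69352863-69353162 for Cdk1, with E2F, CHR and CCAAT matches in capitals:
Cdc20: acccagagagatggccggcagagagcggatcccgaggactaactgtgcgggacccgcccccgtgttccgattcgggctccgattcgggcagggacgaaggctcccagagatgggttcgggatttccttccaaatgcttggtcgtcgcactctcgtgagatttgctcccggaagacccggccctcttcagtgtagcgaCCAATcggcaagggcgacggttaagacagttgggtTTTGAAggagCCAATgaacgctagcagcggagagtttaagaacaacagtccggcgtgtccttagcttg
Cdk1: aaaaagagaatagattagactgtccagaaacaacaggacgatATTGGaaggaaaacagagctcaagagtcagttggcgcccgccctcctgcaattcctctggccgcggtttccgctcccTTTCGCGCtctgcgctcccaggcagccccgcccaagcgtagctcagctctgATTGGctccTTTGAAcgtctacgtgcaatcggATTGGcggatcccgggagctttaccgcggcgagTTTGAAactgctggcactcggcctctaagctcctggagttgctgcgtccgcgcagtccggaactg

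A set of 3 motifs was searched on both strands of these 300-base windows: E2F as TTTCCCGC or TTTGGCGC or TTTCGCGC or TTTGCCGC, CHR as TTTGAA or TTCGAA, and CCAAT. Of the 40 members 30 matched the promoter table, with 31 promoters. An E2F match was present in 46.2% of the 13 replication gene promoters, 7.14% of the 14 mitotic gene promoters and 2.26% of all 32851 promoters. A CHR match was present in 15.4%, 78.6% and 19.2%, and a CCAAT match in 69.2%, 92.9% and 37.4%. In Cdc20 the CHR begins 18 bases and the CCAAT boxes 53 and 8 bases before the start site, and in Cdk1 an E2F match begins 131 bases and CHR matches 71 and 15 bases before it. These are letter matches, not sites of binding.

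Cdk1, the mitotic kinase, was at 19.3, 29.7 and 39.6 CPM in DMSO replicates 2, 3 and 4. It was at 30.9, 53.4, 54.6 and 57 CPM in Asbt-/- CME(+) replicates 1 to 4, with the first-run library among the DMSO libraries and the others above them. tCDCA replicates 1 to 4 held 44.7, 29.9, 50.7 and 46.5 CPM, and WT CME(-) 24.1, 52.2, 45.3 and 33.7 CPM. Asbt-/- CME(-) replicates 1, 2 and 4 held 32.1, 46.5 and 66.3 CPM, and WT CME(+) replicates 1, 3 and 4 held 40.1, 47.6 and 42.9 CPM. The log2 fold changes in tCDCA, WT CME(-), Asbt-/- CME(-), WT CME(+) and Asbt-/- CME(+) were 0.69, 0.48, 0.83, 0.73 and 0.82, with edgeR adjusted p of 0.0883, 0.535, 0.115, 0.295 and 0.056, so none passed. The removed DMSO replicate 1 held 53.4 CPM of Cdk1.

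Ccnb1, cyclin B1, the partner of Cdk1, overlapped between DMSO and every treated group. It was at 13.1, 11.2 and 8.03 CPM in DMSO replicates 2, 3 and 4, at 20.7, 9.16, 13.1 and 17 CPM in tCDCA and at 9.45, 18.6, 11.9 and 15 CPM in WT CME(-). Asbt-/- CME(-) replicates 1, 2 and 4 held 15.4, 9.23 and 12.5 CPM, WT CME(+) replicates 1, 3 and 4 held 13.4, 12 and 8.87 CPM, and Asbt-/- CME(+) replicates 1 to 4 held 10.5, 13.7, 16.4 and 12.8 CPM. The log2 fold changes ran from 0.05 to 0.46, with edgeR adjusted p of 0.506 or more.

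Cenpa, the histone H3 variant that marks centromeres, had values below DMSO in all 5 comparisons: -0.40, -0.52, -0.38, -0.48 and -0.74 in the same order, none past the threshold in edgeR. It was at 52.3 ± 1.71 CPM (SD, n = 3) in DMSO and 28.2 ± 3.66 (n = 3) in Asbt-/- CME(+), where the edgeR adjusted p was 0.0581 and the first-run library held 32.8 CPM. The removed DMSO replicate 1 held 27.7 CPM of Cenpa. The 17 mitotic genes had medians of 0.11 (12 above 0), 0.28 (14), 0.38 (15), 0.26 (13) and 0.50 (15), and without DMSO replicate 3 of 0.09, 0.13, 0.35, 0.09 and 0.36. Whether they differ from those of the replication genes was not tested. With second-run libraries alone 4 members were called in Asbt-/- CME(+): Cdc20, Ccnd1, Cdk1 and, lower, Cenpa. The share of all genes called in that fit is not reported here, so this count has no background beside it.

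**Figure D3:**
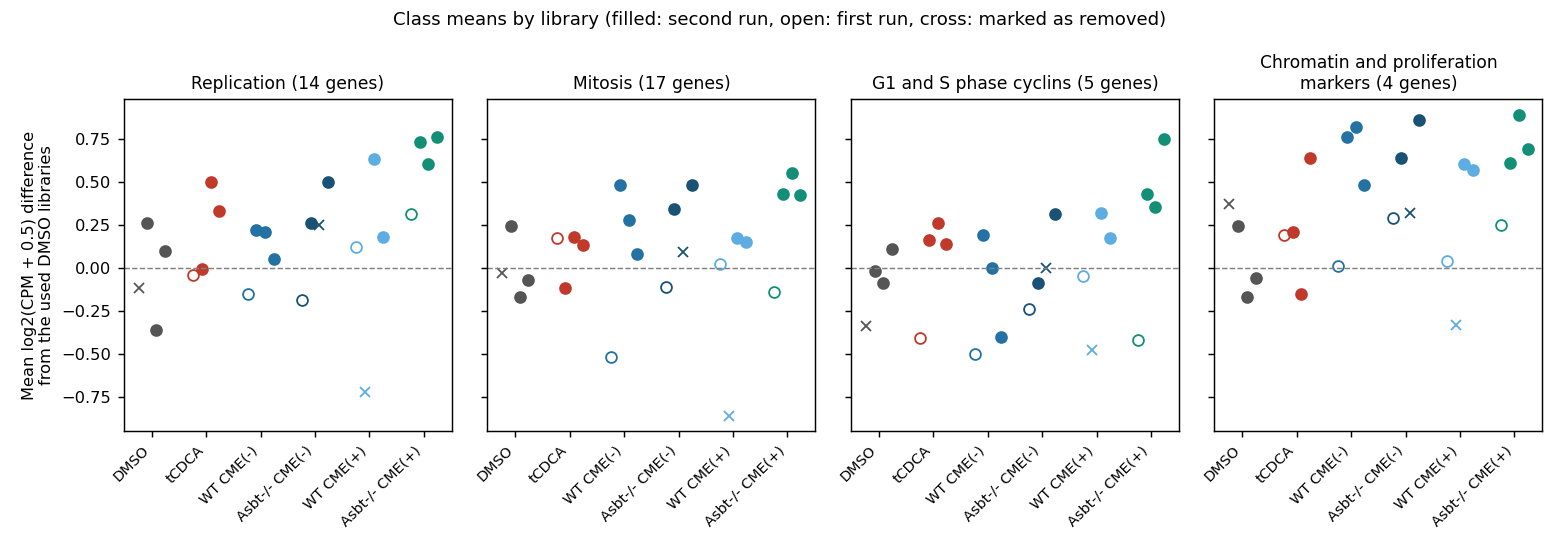
Mean difference from the used DMSO libraries, in log2(CPM + 0.5), for each class and library, by group. The second-run Asbt-/- CME(+) libraries lie between 0.60 and 0.76 for replication and between 0.42 and 0.55 for mitosis, while the removed WT CME(+) replicate 2 lies at -0.72 and -0.86.

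Mki67, the nuclear protein used as a marker of cycling cells, was lower in the first-run than in every second-run library within each of the 4 extract groups. It was at 44.3, 35 and 17.7 CPM in DMSO replicates 2, 3 and 4. Second-run libraries of the 4 extract groups held 59 to 76.8 CPM, all above DMSO, whereas the first-run libraries held 24.3 in WT CME(-), 35 in Asbt-/- CME(-), 37.7 in WT CME(+) and 34.6 in Asbt-/- CME(+). In tCDCA Mki67 spread from 12.5 CPM in replicate 3 to 34.3, 48.9 and 55.9 CPM in replicates 1, 2 and 4.

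By library, Mki67 stood at 73.1, 76.3 and 63.3 CPM in WT CME(-) replicates 2 to 4, at 59.2 and 76.8 CPM in Asbt-/- CME(-) replicates 2 and 4, at 71.6 and 61.8 CPM in WT CME(+) replicates 3 and 4, and at 59, 68.2 and 74.4 CPM in Asbt-/- CME(+) replicates 2 to 4. The change was 1.99-fold in WT CME(-), and the log2 fold changes were 0.47 in tCDCA and 1.04, 1.06 and 1.04 in Asbt-/- CME(-), WT CME(+) and Asbt-/- CME(+), with edgeR adjusted p of 0.21 or more. The removed DMSO replicate 1 held 45.8 CPM of Mki67, above all 5 treated libraries of the same run. Top2a, topoisomerase II alpha, and Hmgb2 had log2 fold changes of 0.17 to 0.68 and 0.40 to 0.53, and neither passed in any comparison with DMSO.

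**Figure D4:**
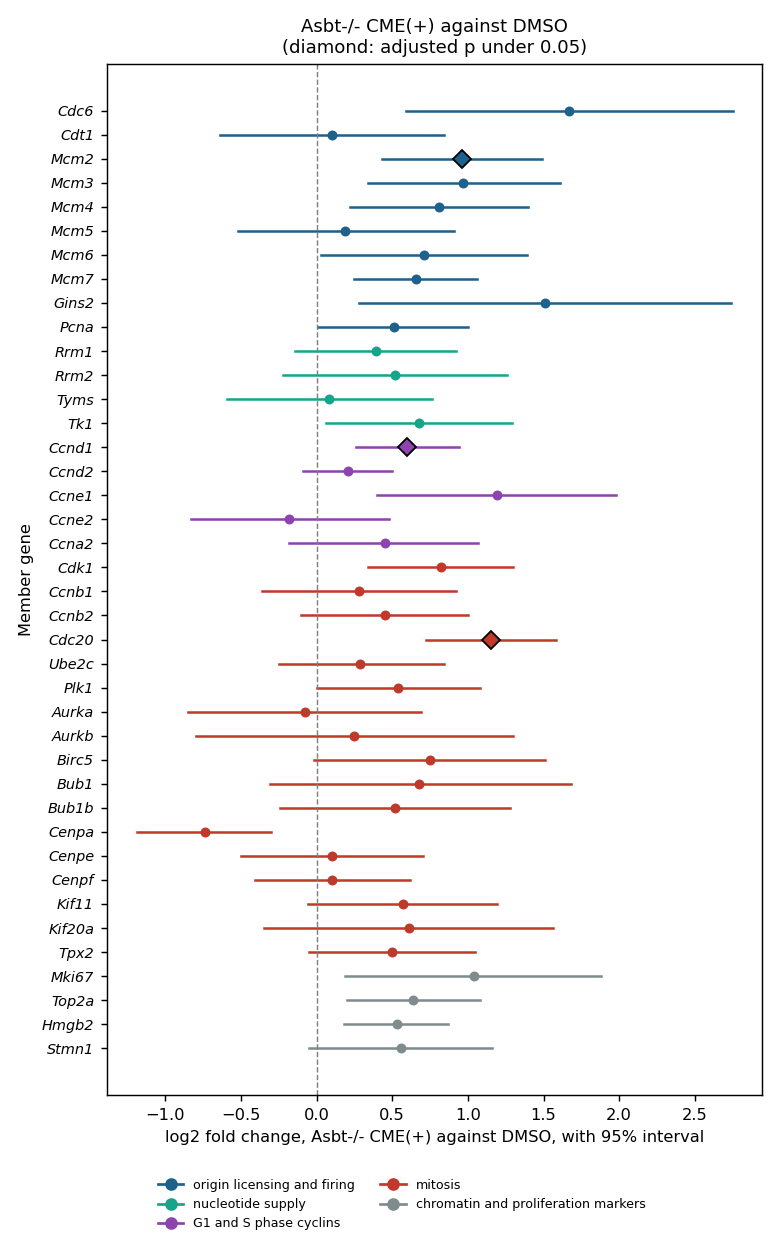
Log2 fold change of each of the 40 genes in Asbt-/- CME(+) against DMSO with its 95% interval, coloured by class, with diamonds at an edgeR adjusted p under 0.05. The points of 37 genes lie to the right of 0, and the interval of Cenpa lies wholly to the left.

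Within the first run the removed DMSO replicate 1 is the only control, with 1 library a group and so no test. Of 40 members 25 were higher in tCDCA replicate 1 than in it, 12 in WT CME(-), 19 in Asbt-/- CME(-), 19 in WT CME(+) and 24 in Asbt-/- CME(+), where 49.2 to 50.2% of all genes were higher. With second-run libraries alone, the members' medians against DMSO were 0.23, 0.35, 0.48, 0.33 and 0.57 in tCDCA, WT CME(-), Asbt-/- CME(-), WT CME(+) and Asbt-/- CME(+).

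Between treatments 0 members rose or fell in edgeR in any of 6 comparisons or in the interaction. For WT CME(-) against WT CME(+), where 0% of all genes changed, 4 members had an unadjusted p under 0.05 against 6.33% of all genes, and DESeq2 called 0. For Asbt-/- CME(-) against Asbt-/- CME(+) 0.0229% of all genes changed, and 3 members had an unadjusted p under 0.05 against 7.11%. There Cdc6 was at -1.62 ± 0.55 and Ccnd1 at -0.57 ± 0.17 (log2 ± SE, n = 3 against 4), with edgeR adjusted p of 0.404 and 0.252, and DESeq2 called 1, Ccnd1. The 14 replication genes had a median of -0.37 in this comparison (13 below 0) and the 17 mitotic genes of -0.09.

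Between donors, 1 member had an unadjusted p under 0.05 in each form, where 0% of all genes changed in CME(-) and 0% in CME(+), and 4.05% and 4.24% had an unadjusted p under 0.05. In both forms it was Kif20a, a mitotic kinesin, at 0.99 ± 0.49 in CME(-) and 1.04 ± 0.49 in CME(+) (log2, Asbt-/- minus WT), with edgeR adjusted p of 0.997 and 1. DESeq2 called 0 in both. In tCDCA against WT CME(-) 0.541% of all genes changed, 2 members had an unadjusted p under 0.05 against 10.7% of all genes, and DESeq2 called 0. In tCDCA against Asbt-/- CME(-) 0.114% changed, 2 members had an unadjusted p under 0.05 against 8.3%, and DESeq2 called 0. For the interaction 0% changed, and 1 member, Ccna2, had an unadjusted p under 0.05 against 3.74% of all genes, with 0 in DESeq2. Cdc20 in Asbt-/- CME(+) against WT CME(+) differed by 0.03 (95% interval -0.37 to 0.44), and in tCDCA against WT CME(-) by 0.23 (-0.15 to 0.61). Ccnd1 in Asbt-/- CME(+) against WT CME(+) differed by 0.30 (-0.03 to 0.63).

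Other genes of the pathway moved in small numbers. Of 42 other replication genes tested 1 rose in Asbt-/- CME(+), where 1.39% of all genes rose: Lig1, the replicative DNA ligase, at 99 ± 12.1 CPM (SD, n = 3) against 46.4 ± 14 in DMSO (0.96 ± 0.23, log2 ± SE, edgeR adjusted p = 0.0159), with 37.6 CPM in its first-run library and 36.8 in the removed DMSO library. Of 48 other mitotic genes 2 rose there: Cks1b, a Cdk-binding subunit (0.96 ± 0.23, adjusted p = 0.0181), and Ncapd2 of condensin (1.08 ± 0.28, adjusted p = 0.0283). Cks1b rose also in tCDCA (0.86 ± 0.23, edgeR adjusted p = 0.0216), as the 1 of 48 that did, where 2.52% of all genes rose. In the first run Cks1b was at 21.6 CPM in the removed DMSO library, 22.3 in Asbt-/- CME(+) and 20.1 in tCDCA. Ncapd2 was at 14.6 CPM in that DMSO library and 19.7 in first-run Asbt-/- CME(+). At an unadjusted p under 0.05 in Asbt-/- CME(+), 7 of 42 replication and 8 of 48 mitotic genes were higher and 0 lower in edgeR, against 7.76% and 7.46% of all genes, and without DMSO replicate 3, 2 and 4 were higher. Without DMSO replicate 3 none of Lig1 (0.73), Cks1b (0.82 in Asbt-/- CME(+), 0.72 in tCDCA) and Ncapd2 (0.86) passed, with edgeR adjusted p of 0.166 to 0.272.

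Of 16 cell cycle transcription factors tested 2 rose in Asbt-/- CME(+), where 1.39% of all genes rose: E2f1 (1.84 ± 0.47, log2 ± SE, edgeR adjusted p = 0.0238) and E2f2 (1.23 ± 0.33, adjusted p = 0.0374), both E2F activators. E2f1 was at 13.7 ± 2.52 CPM (SD, n = 3) in Asbt-/- CME(+) and 4.11 ± 2.63 in DMSO. E2f2 rose also in tCDCA (1.15 ± 0.33, edgeR adjusted p = 0.0326), at 15.5 ± 3.49 CPM against 6.26 ± 3.53 (SD, n = 3 each), while the removed DMSO replicate 1 held 20.7 CPM and first-run tCDCA 21.9. Without DMSO replicate 3 E2f1 was at 1.46 and E2f2 at 0.93 in Asbt-/- CME(+) and 0.85 in tCDCA (edgeR adjusted p = 0.234, 0.317 and 0.259). Myc, at -0.47 and 0.50 in Asbt-/- CME(+) and tCDCA, and Foxm1, at 0.47 and -0.10, did not pass in edgeR. E2f1 counts did not exceed 61 in any library, and those of Foxm1 33.

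Of 19 cell cycle inhibitors tested 3 fell in tCDCA, where 3.16% of all genes fell: Ccng2 by 0.74, Rb1 by 0.84 and Wee1 by 1.05 on the log2 scale (edgeR adjusted p = 0.0084, 0.00958 and 0.017). Ccng2, cyclin G2, an inhibitory cyclin, fell also in Asbt-/- CME(+), by 1.17 (edgeR adjusted p = 0.000165), at 57.9 ± 8.75 CPM (SD, n = 3) against 131 ± 43.3 in DMSO. In the first run Ccng2 was at 86.1 CPM in the removed DMSO replicate 1, 78.1 in Asbt-/- CME(+) and 110 in tCDCA. Rb1 was at 39 CPM in that DMSO library and 31.1 in first-run tCDCA, and Wee1 at 5.97 and 4.46 CPM. Without DMSO replicate 3 Ccng2 remained past the threshold in Asbt-/- CME(+) (-0.94, edgeR adjusted p = 0.012), whereas Ccng2, Rb1 and Wee1 in tCDCA did not pass (edgeR adjusted p = 0.183, 0.108 and 0.111). Cdkn1a, which encodes the inhibitor p21, was at 1320 ± 165 CPM in Asbt-/- CME(+) and 1030 ± 232 in DMSO, and did not pass.

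Markers of cell types moved with these comparisons, and their part in the members' changes was not tested. The summed level of 19 enterocyte markers was 9030 to 14500 CPM in the used DMSO libraries, 2760 to 5100 in second-run tCDCA and 4460 to 6940 in second-run Asbt-/- CME(+). In the first run this sum was 4400 CPM in the removed DMSO replicate 1, 3400 in tCDCA and 5100 in Asbt-/- CME(+). It was 5630 CPM in first-run WT CME(-), 3450 in Asbt-/- CME(-) and 4430 in WT CME(+). In tCDCA 14 of 19 enterocyte markers fell and in Asbt-/- CME(+) 3 of 19, where 3.16% and 0.922% of all genes fell. In WT CME(-), Asbt-/- CME(-) and WT CME(+) 1, 1 and 0 fell, where 0.19%, 0.571% and 0.0305% of all genes fell. More were lower at an unadjusted p under 0.05 in edgeR: 18 of 19 in tCDCA and 16 in Asbt-/- CME(+). In WT CME(-), Asbt-/- CME(-) and WT CME(+) these were 10, 17 and 3. Of all genes, 8.83% and 7.46% were lower in tCDCA and Asbt-/- CME(+). In WT CME(-), Asbt-/- CME(-) and WT CME(+) it was 4.93%, 6.51% and 4.71% of all genes. Leaving out DMSO replicate 3, 13 enterocyte markers fell in tCDCA and 0 in the 4 extract groups in edgeR. Then 9 of 19 were lower in Asbt-/- CME(+) at an unadjusted p under 0.05, and 17 in tCDCA. WT CME(-), Asbt-/- CME(-) and WT CME(+) had 6, 10 and 1 lower. Of 15 crypt stem cell markers tested 2 rose in Asbt-/- CME(+), Ephb2 and Sox9, and 3 in tCDCA, Lrig1, Ephb3 and Sox9, where 1.39% and 2.52% of all genes rose. Without DMSO replicate 3 none of these 5 calls held (edgeR adjusted p = 0.35 for Ephb2 and 0.243 for Sox9 in Asbt-/- CME(+), and 0.142, 0.284 and 0.181 for Lrig1, Ephb3 and Sox9 in tCDCA). The 16 stem cell markers summed to 272 to 408 CPM in DMSO and 453 to 484 in second-run Asbt-/- CME(+), but to 287 in its first-run library. In the removed DMSO replicate 1 they summed to 362 CPM.

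Of 9 Paneth cell markers 3 rose in tCDCA and 2 in Asbt-/- CME(-), where 2.52% and 0.381% of all genes rose. Their sum was 24700 to 28100 CPM in the used DMSO libraries. Second-run tCDCA held 32700 to 50500 CPM and second-run Asbt-/- CME(-) 37200 to 58000. In the first run the removed DMSO replicate 1, at 41700 CPM, lay above tCDCA (38900) and Asbt-/- CME(-) (29500). Of 9 goblet cell markers 2 fell in tCDCA, where 3.16% of all genes fell. No Paneth cell marker passed in edgeR without DMSO replicate 3, with 8 higher in tCDCA and 6 in Asbt-/- CME(-) at an unadjusted p under 0.05, and 1 goblet cell marker, Fcgbp, fell in tCDCA. The 12 T cell markers summed to 8.48 to 21.9 CPM in the used second-run libraries and 62.9 to 99.8 CPM in the first run, and the 12 germinal centre B cell markers to 107 CPM in Asbt-/- CME(+) replicate 1, against 24.8 to 44.3 CPM in the other first-run libraries. Of 8 fibroblast markers 1, Dcn, fell in Asbt-/- CME(+), where 0.922% of all genes fell, a call lost without DMSO replicate 3. With Asbt-/- CME(+) 1 of 6 germinal centre B cell markers, 1 of 8 T cell markers and 3 of 8 smooth muscle markers tested were lower, the 1 erythroid marker tested was higher and 0 of 8 endothelial markers differed at an unadjusted p under 0.05, and none of these passed the edgeR adjustment. At that unadjusted p, 7.46% of all genes were lower and 7.76% higher. Slc4a1, an erythroid marker, was at 0 in all libraries used. The share of mitochondrial rRNA was 17.57 to 19.02% in the second-run Asbt-/- CME(+) libraries and 19.46 to 34.6% in DMSO, and with this rRNA left out the same number of members, 3, rose in Asbt-/- CME(+). Leaving out these rows changes only the scaling. Whether sample differences that go with the rRNA share entered the calls was not tested.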

How the data were processed

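RNA of 24 ileal fragment samples was profiled by 3' mRNA tags from 100 ng of total RNA, per the labels' protocols. What the authors deposited is a single table of raw counts, 1 row per gene, without normalization. FastQC, cutadapt, HISAT2, Picard and the build GRCm39 are named in the submitters' processing notes, without versions, while the counting tool and strand setting were not given in the sources used here, which leaves overlapping and antisense genes uncertain. Symbols came from GENCODE M21 and a name table, which named 51884 of 57126 identifiers (88.4% of the counts), and promoters came from RefSeq on GRCm38.p6, used for sequence only.

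Totals were 2755149 to 5602265 counts per used library. The test on 21 libraries was run with edgeR 4.0.16 under R 4.3.3: filterByExpr, TMM scaling and 1 robust quasi-likelihood model with terms for group and run, 12 contrasts, two-sided, p-values adjusted over 13125 genes per contrast. The common biological coefficient of variation was 0.266. DESeq2 1.42.0 was an alternative, beside other scalings, filters, run terms, libraries and blocks. Scripts were tested on simulated data. The most alike replicates of a group still differed by more than counting noise (chi-square of 7.2 per degree of freedom).

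Values by library are given for the members that rose or fell and for Mki67, Pcna, Mcm2, Ccnb1, Cdk1 and Ccnd1. Of pathway lists the genes that rose or fell are named, up to 4 per comparison by p, with Cdkn1a, Myc, E2f1 and Foxm1 always, and of cell type lists up to 3. Members, lists and this rule were chosen with earlier results of these data known. Mcm3, Mcm4, Mcm5, Mcm6, Mcm7, Cdc6, Cdt1, Gins2, Tk1, Tyms, Ccne1, Ccne2, Ccna2, Cenpa, Kif20a, Top2a and Hmgb2 were singled out after their values were seen.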

Additional observations from a re-analysis of the deposited data

Results flagged for a closer look

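Cdk1 in Asbt-/- CME(+) replicate 1 stood at 30.9 CPM, apart from the other 3 libraries of its group at 53.4 to 57 CPM, by a gap of 0.86 of the group's range, past the 95% critical value of Dixon's test. It is the first-run library of the group. Of 21 sets of 4 libraries (7 genes in 3 groups) 1 was marked in this way, and chance marks about 1 in 20.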

How the results depend on the processing

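Main values are 1 member called in tCDCA, 0 in WT CME(-), 0 in Asbt-/- CME(-), 1 in WT CME(+) and 3 in Asbt-/- CME(+), against DMSO. In tCDCA the number was 0 when all 24 libraries were fitted and 0 when its groups were fitted alone. In Asbt-/- CME(-) it was 1 in DESeq2 and 3 with no count filter. In WT CME(+) it was 0 without scaling factors, 0 without the run term, 0 with 24 libraries, 0 in the second run only, 0 with the compared groups alone and 0 with DMSO replicate 1 added (an alternative chosen after seeing the data, as were the counts over other gene lists without DMSO replicate 3). In Asbt-/- CME(+) it was 8 without scaling factors, 8 in DESeq2, 7 with no count filter, 0 without the run term, 1 with 24 libraries, 0 with the compared groups alone and 1 with DMSO replicate 1 added. In Asbt-/- CME(-) against Asbt-/- CME(+) DESeq2 gave 1. Leaving out 1 replicate gave 0 to 2 in tCDCA (0 without DMSO replicate 3, 2 without DMSO replicate 4 or tCDCA replicate 2 or 3), 0 to 3 in Asbt-/- CME(-) (3 without DMSO replicate 2), 0 to 1 in WT CME(+) (0 without DMSO replicate 3 or WT CME(+) replicate 1 or 3) and 1 to 5 in Asbt-/- CME(+) (5 without DMSO replicate 2 or Asbt-/- CME(+) replicate 1; 1 without DMSO replicate 3 or Asbt-/- CME(+) replicate 2 or 4). The cause was not tested. Shares of all genes called under these alternatives are not reported here, so a larger or smaller count of members has no background beside it. The other 7 comparisons kept their number of 0 under every alternative run except that 1. Without scaling factors the median log2 fold change of all genes stood at 0.13 in tCDCA, 0.12 in WT CME(+) and 0.22 in Asbt-/- CME(+), against 0, -0.02 and -0.01 with TMM, and relative to it the members' medians were 0.23, 0.40 and 0.54.

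Log2 fold changes near 0 changed sign. Ccnd1 in WT CME(-) was 0.00 in DESeq2, with no count filter, in the second run only and with the replicate block, 0.01 without mitochondrial rRNA, and -0.10 to 0.15 leaving out 1 replicate. Ccnd1 in Asbt-/- CME(-) was -0.11 without the run term, -0.07 with 24 libraries, -0.10 with the compared groups alone, -0.09 with DMSO replicate 1 added, and -0.07 to 0.17 leaving out 1 replicate. With 24 libraries Ccnd1 in WT CME(+) was -0.01. Ccnb1 in WT CME(+) was -0.24 with 24 libraries, -0.05 in the second run only, -0.13 with DMSO replicate 1 added, and -0.13 to 0.22 leaving out 1 replicate.

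With the replicate number as a replicate block, 1 member was called in tCDCA, 1 in WT CME(+) and 1, Cdc20, in Asbt-/- CME(+), and 0 elsewhere. Deviations of same-numbered libraries correlated at -0.114 to 0.08 over 35 pairs, 0 of them over 0.1. CME(-) and CME(+) replicates made from 1 donor correlated at -0.013 to 0.055 over 4 pairs. A block of replicate number, fitted to CME(-) and CME(+) of each donor genotype alone, gave 0 members called. Same-numbered replicates present in both forms share a named extract donor, except replicate 1, for which no donor is named. The correlation was thus low also where an extract donor was shared. It cannot tell whether same-numbered samples share a mouse or a culture. Depth limits the genes of few counts: Cdc6 had as few as 3 in a used library.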
